A study of Rattus norvegicus with 4 samples.

Results

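The proteasome genes measured here were 46 of the 12858 genes tested on 4 rat arrays. The family was chosen with earlier results of these data known. Its genes are those whose array name begins with Psma to Psmg and a number, with the inducible subunits Psmb8 and Psmb9 left out. These names covered 51 of the 30367 probes other than controls. A probe entered when the scanner software marked it well above background on both arrays of either group, which held for 50 of the 51. All 46 genes had a passing probe, and the probe used for each was well above background on all 4 arrays. By role, 17 genes encode the 20S core, 17 the 19S cap, 4 activators, 6 assembly chaperones and 1 an inhibitor. The remaining gene, Psmc3ip, carries the name of a partner of the ATPase Psmc3 but encodes a recombination protein and no proteasome subunit.

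The study set 2 arrays of liposome-loaded rats against 2 arrays of saline-loaded control rats. All were male WKAH rats of 8 to 12 weeks, whose spleens were taken 24 h after the injection. Spleen cells were first depleted of MHC class II positive cells with the antibody OX-6, then enriched for CD11b/c, a myeloid integrin, with the antibody OX-42. The labels give neither the dose nor the lipids of the liposomes. They also do not say whether an array stands for 1 animal, a pool or a repeat of the same cells. The p-values here therefore reflect the spread among these arrays, part of which may be technical.

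The proteasome degrades proteins that carry chains of ubiquitin. Its 20S core is a barrel of alpha and beta rings, and its proteolytic sites lie in the beta 1, beta 2 and beta 5 subunits. The 19S cap binds ubiquitin chains, removes them, unfolds the protein with a ring of ATPases and feeds it into the core. In immune cells interferon induces alternative catalytic subunits and the activator PA28, which alter the peptides available to MHC class I, and phagocytes of the spleen carry out much of the body's breakdown of ingested cells and particles.

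Most proteasome genes lay slightly higher on the liposome arrays, but few single genes passed the test. Values are log2 processed intensities relative to the array's 75th percentile, and a difference is liposome minus saline with the standard error (SE) of limma's fit over all 12858 genes (n = 2 arrays per group). With limma and a Benjamini-Hochberg adjusted p under 0.05 over all genes, 2 of the 46 genes rose, Psmd2 and Psmg2, and 0 fell, against 4.83% of all genes higher and 4.06% lower. In either direction 4.35% of the 46 were called, less than the 8.89% of all genes. Without adjustment, 14 of the 46 were higher and 1 lower at p under 0.05, where all genes gave 16% higher and 16.6% lower.

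The differences were small and mostly of the same sign. The fitted difference was above 0 for 41 of the 46, and for 46.1% of all genes. Both liposome arrays lay above both saline arrays for 34 of the 46 (73.9%), against 30.4% of all genes. Among the 5940 genes brighter than the 75th percentile they did so for 2067. Both lay below for 1, Psmb11, against 35.1% of all genes, and the groups overlapped for the other 11. The median difference was 0.22, against -0.04 over all genes and -0.01 over the 5940 genes brighter than the 75th percentile. The differences ran from -0.62 to 0.64, and their SEs from 0.09 to 0.24. The genes come from the same 4 arrays and are not replicates, and no test was made of the list.

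**Figure D1:**
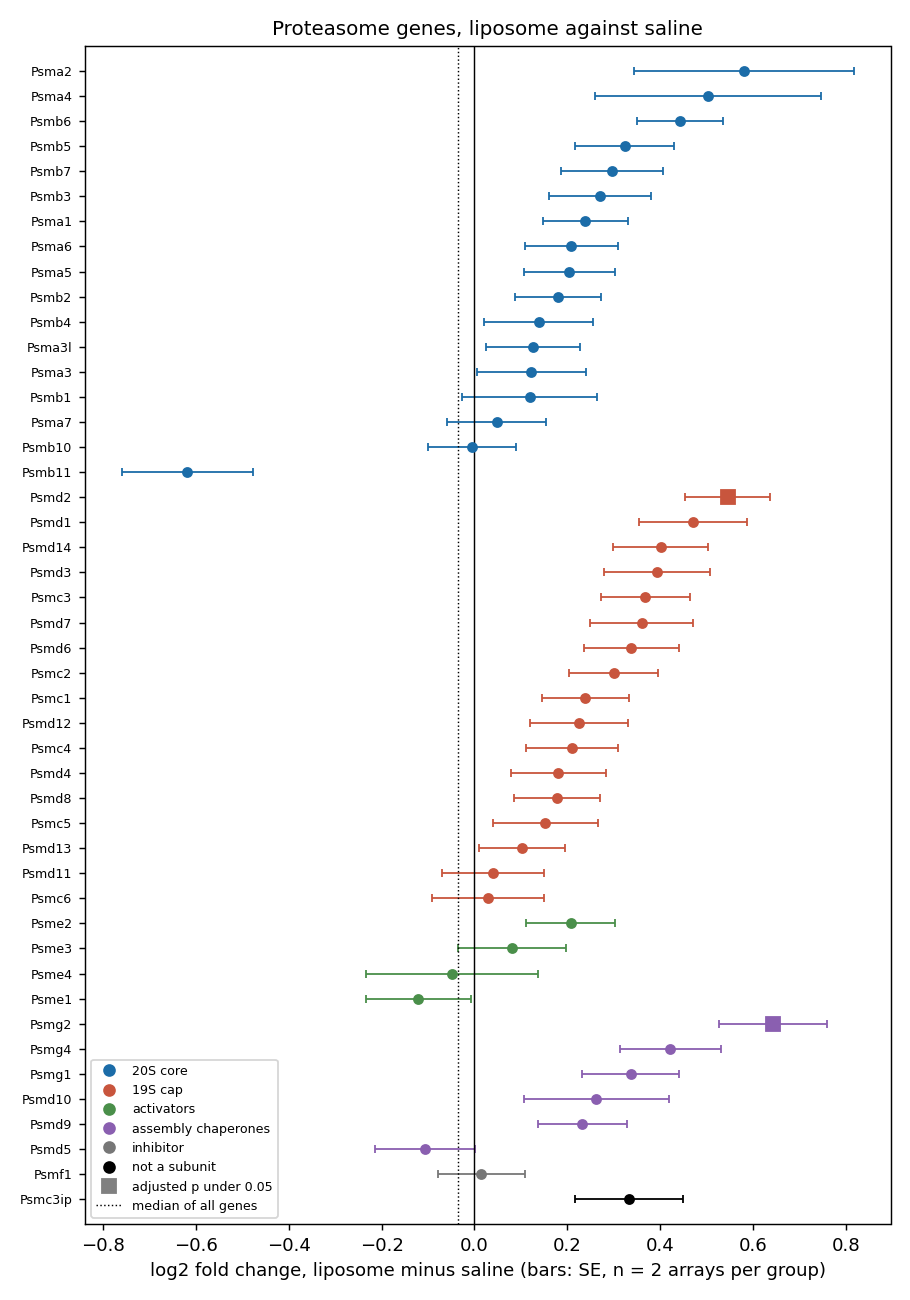
Log2 fold change, liposome minus saline, of each of the 46 genes (x axis; points are limma estimates, bars their SE, n = 2 arrays per group), ordered within each role from the highest to the lowest. The dotted line marks the median of all genes at -0.04. The 17 cap genes all lie above 0, the activators lie on both sides of it, and the squares, Psmd2 and Psmg2, are the genes with an adjusted p under 0.05.

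Marker genes of several cell types differed between the groups, and each level given here is an average over all cells of the fraction. Most erythroid, neutrophil and dendritic markers were lower on the liposome arrays. Of the 10 measured erythroid genes 6 fell. The 10 had summed linear signals of 32.8 to 34.1 times the 75th percentile on liposome arrays and 88.5 to 91.4 on saline arrays. Of 13 neutrophil genes 7 fell (157 to 180 on liposome arrays, 271 to 313 on saline arrays), and of 7 dendritic genes 3 fell (2.92 to 3.03 and 6.35 to 7.25). Macrophage genes went both ways: of 11, 6 fell and 1, Mertk, rose (84.2 to 93.2 and 113 to 114). Their fitted differences were below 0 for 8 and above 0 for 3, Mertk, Cd68 (0.76) and Itgam (0.46). Cd68 and Itgam were not called, but for both genes the liposome arrays lay above the saline arrays. None of 11 T cell, 11 natural killer or 11 B and plasma cell genes was called (smallest adjusted p 0.128, 0.208 and 0.0612 by limma). Summed signals were 21.3 to 39.6 on liposome and 21.4 to 52.5 on saline arrays for T cells, 54.6 to 89.6 and 77.5 to 166 for natural killer cells, and 45.4 to 58.3 and 77.9 to 82.0 for B and plasma cells. All 11 natural killer genes were nonetheless lower on liposome 1 than on saline 1 and on liposome 2 than on saline 2 (median differences -1.11 and -1.30), and within each group array 2 lay above array 1 by medians of 1.58 (liposome) and 1.66 (saline), a gap that enters their SE. All 11 B and plasma cell genes were lower in the same comparisons (medians -0.58 and -0.82). In T cell genes array 2 also lay above array 1, by medians of 0.99 (liposome) and 1.38 (saline), which enters their SE. Of the 11 T cell genes 2 were lower in both comparisons. None of 13 genes of dividing cells was called either (33.2 to 35.5 on liposome and 38.0 to 42.7 on saline arrays). The defining markers Gata1, Ltf, Mpo, Eomes, Jchain, Zbtb46, Marco and Mki67 did not enter the fit. Of the 11 macrophage genes 7 lay above the 75th percentile on all 4 arrays, Cd68, Csf1r and Itgam among them, and 2, Cd5l and Mertk, lay below it on all 4. In such bulk RNA, fewer cells of a type and less RNA per cell cannot be told apart, and the part these markers have in the proteasome values was not tested.

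Within each group both arrays lay on the same side. Relative to each gene's own mean over the 4 arrays, the median of the 46 genes was 0.12 on liposome 1 and 0.10 on liposome 2, against -0.12 on saline 1 and -0.11 on saline 2. A gene's deviations sum to 0 over the 4 arrays, so the saline side mirrors the liposome side and adds no separate support. No 1 array carried the median alone: leaving out each array in turn gave medians of 0.19 to 0.24.

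**Figure D2:**
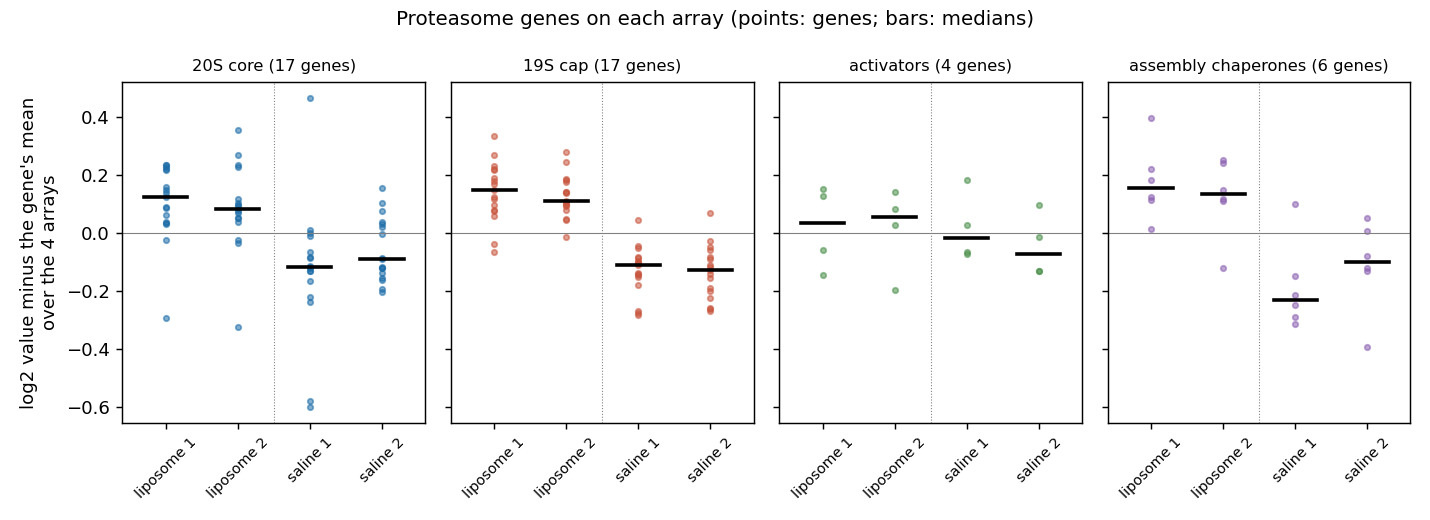
Log2 value of each gene minus that gene's mean over the 4 arrays (y axis), by array (x axis), for the core, cap, activator and chaperone genes. Points are genes and bars their medians. The core and cap medians lie above 0 on both liposome arrays and below 0 on both saline arrays, and the 2 core points near -0.6 on saline 1 are Psma2 and Psma4.

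In the 20S core none of 17 genes was called by limma (smallest adjusted p 0.0618, Psmb6). At unadjusted p under 0.05, 2 were higher and 1 lower, against 16% and 16.6% of all genes. Fitted differences were above 0 for 15 of 17, against 46.1% of all genes. Both liposome arrays lay above both saline arrays for 12, against 30.4% of all genes. The core median was 0.20.

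The alpha ring forms the gate of the barrel, through which proteins enter. All 8 alpha genes had a difference above 0, with a median of 0.21, and the groups were apart for 6. The largest was Psma2, at 2.82 and 2.95 on the liposome arrays and 1.99 and 2.62 on the saline arrays. Psma4 had 3.36 and 3.39 on the liposome arrays and 2.54 and 3.20 on the saline arrays. In both genes the groups did not overlap, yet saline 1 lay far below saline 2. The difference was 0.58 ± 0.24 for Psma2 (adjusted p 0.180 by limma) and 0.50 ± 0.24 for Psma4 (adjusted p 0.233 by limma), neither of which passed. These sizes rest on saline 1: without it Psma2 differed by 0.27 and Psma4 by 0.18, and without saline 2 by 0.89 and 0.83.

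The other alpha genes, Psma1, Psma3, Psma3l, Psma5, Psma6 and Psma7, differed by 0.05 to 0.24. Psma1 had the largest of these, with means of 3.39 on the liposome arrays and 3.16 on the saline arrays and groups that did not overlap (0.24 ± 0.09, adjusted p 0.166 by limma). Psma3 and Psma3l are listed as separate genes. Their probes start 1059 bases apart on chromosome 6 of the rat assembly rn4, at chr6:93112068-93112127 and chr6:93111009-93111068, both on the plus strand. Whether they are separate genes or names of a single locus was not resolved, so they may not be separate members. Their differences were 0.12 and 0.13, but each probe may also bind RNA of the other gene, so which of them was measured is uncertain.

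The beta ring carries the proteolytic sites. Of its 9 genes 7 had a difference above 0, with a median of 0.18, and 6 had groups apart upward. Psmb6, the constitutive beta 1 subunit, had 2.17 and 2.18 on the liposome arrays and 1.71 and 1.74 on the saline arrays. The groups were well apart and the arrays within a group close, but the difference of 0.44 ± 0.09 missed the threshold (adjusted p 0.0618 by limma). With another background correction (normexp with quantile normalisation) it passed, at 0.39 and an adjusted p of 0.0488 by limma, and over the alternatives that p ran from 0.0488 to 0.323.

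Psmb5 and Psmb7, the constitutive beta 5 and beta 2 subunits, showed smaller differences. Psmb5 had 3.31 and 3.17 on the liposome arrays and 2.94 and 2.88 on the saline arrays (0.32 ± 0.11, adjusted p 0.126 by limma). Psmb7 had 2.18 and 2.36 on the liposome arrays and 1.99 and 1.96 on the saline arrays (0.30 ± 0.11, adjusted p 0.156 by limma). Neither gene's groups overlapped, and neither was called. The structural subunits Psmb1, Psmb2, Psmb3 and Psmb4 differed by 0.12 to 0.27, and none was called.

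Psmb10, the inducible beta 2 subunit, had 4.91 and 4.84 on the liposome arrays and 4.89 and 4.88 on the saline arrays. The groups overlapped and the difference was -0.01 ± 0.10 (adjusted p 0.975 by limma), with a 95% interval from -0.26 to 0.25.

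Psmb11 lay lower on the liposome arrays. It encodes a beta 5 variant known in mouse from the thymic epithelium, where it takes part in the selection of T cells. Its value was -4.01 and -4.04 on the liposome arrays and -3.25 and -3.56 on the saline arrays. The liposome arrays lay below both saline arrays, with a difference of -0.62 ± 0.14 (adjusted p 0.0695 by limma). The probe was dim, and with normexp background correction the difference was -0.20. A second Psmb11 probe was the only member probe that failed the filter on background. Without Psmb11 the core median was 0.21 over 16 genes.

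The 3 catalytic sites allow each constitutive subunit to be set beside the inducible one that replaces it in the immunoproteasome. These pairs were chosen after their values were seen and are given as a description, with no test between them. Psmb9, the inducible beta 1 subunit, had 4.39 and 4.45 on the liposome arrays and 4.77 and 4.72 on the saline arrays. Its groups were apart downward (-0.33 ± 0.10, adjusted p 0.106 by limma), while those of Psmb6 were apart upward. Psmb8, the inducible beta 5 subunit, had 4.05 and 3.92 on the liposome arrays and 4.27 and 3.98 on the saline arrays. Those groups overlapped (-0.14 ± 0.14, adjusted p 0.520 by limma). The inducible gene's difference minus that of its constitutive partner was -0.77 at beta 1, -0.30 at beta 2 and -0.47 at beta 5. Being taken within the same arrays, these contrasts do not depend on the 75th percentile used for scaling.

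**Figure D3:**
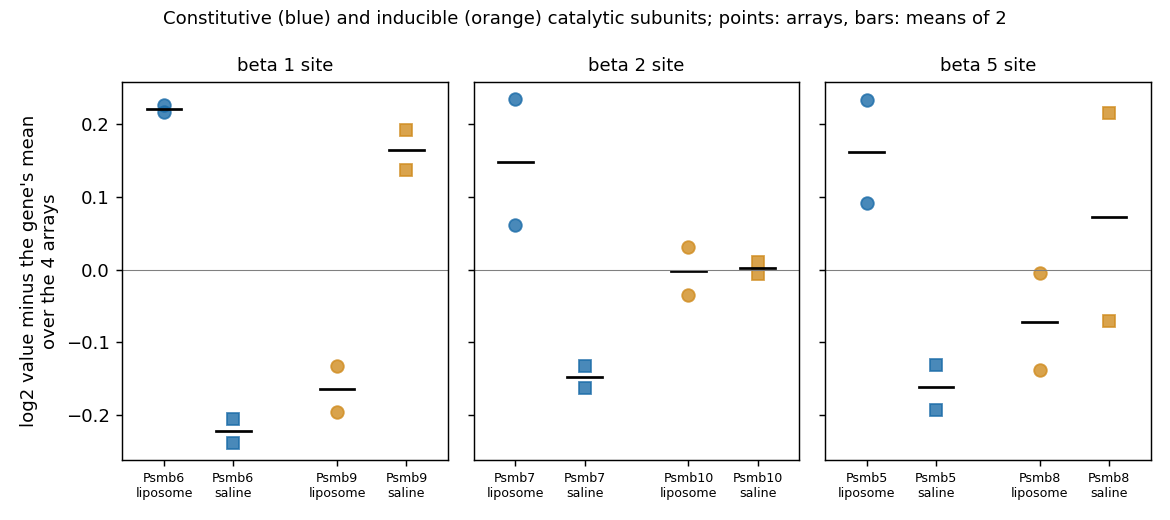
Log2 value minus the gene's mean over the 4 arrays (y axis) for the constitutive (blue) and inducible (orange) gene of each catalytic site. Circles are liposome arrays, squares saline arrays, and bars the means of 2 arrays. Psmb6, Psmb7 and Psmb5 lie above 0 on the liposome arrays, Psmb9 lies below 0 on them, and Psmb10 lies near 0 in both groups.

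The promoters of these catalytic genes differ in the short sequences that they hold, and those of Psmb6, Psmb5 and Psmb10 are shown for that reason. Each line gives the 250 bases before the annotated start in RefSeq's rat assembly GRCr8, 5′ to 3′ on the strand of the gene, at chr10:55737638-55737887 (plus strand) for Psmb6, chr15:32047380-32047629 (minus strand) for Psmb5 and chr19:50743293-50743542 (minus strand) for Psmb10. Capitals mark a match to TGACNNNGC, the core of the antioxidant response element, in the constitutive genes, and matches to the core of the interferon-stimulated response element (GAAA, any 2 bases, GAAA), in Psmb10.
Psmb6: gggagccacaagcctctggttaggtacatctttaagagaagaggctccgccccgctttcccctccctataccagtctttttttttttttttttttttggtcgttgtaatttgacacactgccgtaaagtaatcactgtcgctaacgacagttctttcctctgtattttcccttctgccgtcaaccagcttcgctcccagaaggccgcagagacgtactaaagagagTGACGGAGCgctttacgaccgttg
Psmb5: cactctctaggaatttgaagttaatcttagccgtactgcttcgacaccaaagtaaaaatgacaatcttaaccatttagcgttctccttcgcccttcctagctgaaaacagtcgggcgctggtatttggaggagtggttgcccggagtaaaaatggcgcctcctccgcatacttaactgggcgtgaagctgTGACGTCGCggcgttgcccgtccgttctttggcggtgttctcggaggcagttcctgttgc
Psmb10: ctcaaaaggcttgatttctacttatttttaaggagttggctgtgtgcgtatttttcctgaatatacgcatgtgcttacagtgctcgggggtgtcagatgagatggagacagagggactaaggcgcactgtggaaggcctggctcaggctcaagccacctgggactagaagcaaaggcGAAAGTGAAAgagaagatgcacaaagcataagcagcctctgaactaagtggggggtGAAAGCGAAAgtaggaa
The match begins 24 bases before the start in Psmb6 and 60 bases before it in Psmb5, and the matches in Psmb10 begin 73 and 17 bases before it. The window of Psmb7 held neither sequence, and those of Psmb8 and Psmb9 were not searched. Elsewhere in the core the interferon element core also occurred in Psma4 and Psmb3, whose differences were 0.50 and 0.27. TGACNNNGC also occurred in Psma3 and Psmb2, with differences of 0.12 and 0.18. A match describes the letters of the window and is not evidence of binding.

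Over the whole family, 40 of the 46 genes had a promoter window in the RefSeq table, from 250 bases before to 50 after the start. Both strands were searched, and matches of different sequences were counted separately even where they share bases. TGACNNNGC occurred in 8 of the 40 windows (20%) and in 12.1% of all 33469 windows of that length. CCGGAAG, the core bound by ETS factors, occurred in 14 (35.0%), against 8.75% of all windows, and in 7 of the 14 cap windows. CCAAT occurred in 19 (47.5%) against 37.5%, and the interferon element core in 6 (15.0%) against 3.92%. The windows of the called genes Psmd2 and Psmg2 held none of these sequences. Each member gave a single window, while the set of all windows was not limited to genes detected on these arrays. No share was tested.

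Among the 17 genes counted here as the 19S cap every difference was above 0. Adrm1 and Sem1, cap components that the name rule leaves out, were counted as partners and differed by -0.08 and 0.19. The median of the 17 genes was 0.24, with a range from 0.03 to 0.55. Both liposome arrays lay above both saline arrays for 15 of 17 (88.2%), against 30.4% of all genes. The signs of Psmc6 and Psmd11 rest on single arrays: 1 or the other lay at -0.02 to -0.05 when liposome 2, saline 1 or saline 2 was left out. By limma 1 gene rose and 0 fell after adjustment, against 4.83% and 4.06% of all genes. At unadjusted p under 0.05, 8 were higher, against 16% of all genes.

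Psmd2, a large scaffold subunit of the cap's base, rose. It had 4.08 and 4.09 on the liposome arrays and 3.53 and 3.54 on the saline arrays. The arrays of a group nearly coincided and the groups were far apart, with a difference of 0.55 ± 0.09, or 1.46-fold (adjusted p 0.0449 by limma). Its probe lies at chr11:82478178-82478237 of rn4, on the minus strand. The call is near the threshold: over the alternatives its adjusted p ran from 0.0364 to 0.286, and it was missed with quantile normalisation (0.0516), with each probe tested on its own (0.0516), without the filter on dim probes (0.286) and when any 1 array was left out (0.0762 to 0.265), although the difference itself stayed between 0.54 and 0.55 whichever array was left out.

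Psmd1, the other large scaffold subunit, had 4.33 and 4.14 on the liposome arrays and 3.73 and 3.80 on the saline arrays (0.47 ± 0.12, adjusted p 0.0796 by limma). Psmd14, the deubiquitinase that removes ubiquitin chains from the substrate, had 0.79 and 0.76 on the liposome arrays and 0.43 and 0.31 on the saline arrays (0.40 ± 0.10, adjusted p 0.0828 by limma). Both had groups that were apart, and neither passed.

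Psmd7, the partner of Psmd14 in the lid of the cap, differed by 0.36. The other lid subunits differed by 0.39 (Psmd3), 0.34 (Psmd6), 0.22 (Psmd12), 0.18 (Psmd8), 0.10 (Psmd13) and 0.04 (Psmd11). Psmd4, a receptor for ubiquitin chains, differed by 0.18. The 11 genes that are not ATPases had a median of 0.34. Of these, Psmd11 alone had overlapping groups.

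The ATPases of the base, which unfold the substrate, had a median of 0.22 over 6 genes, and all 6 were above 0. Psmc3 was the largest, at 2.99 and 2.98 on the liposome arrays and 2.66 and 2.58 on the saline arrays. Its groups were apart (0.37 ± 0.10, adjusted p 0.0870 by limma). Psmc2 differed by 0.30, Psmc1 by 0.24, Psmc4 by 0.21, Psmc5 by 0.15 and Psmc6 by 0.03. The groups of Psmc6 overlapped, and those of the other ATPases did not.

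The activators bind the ends of the core in place of the cap. Their median was 0.02, none of the 4 was called (smallest adjusted p 0.218 by limma), and 0 reached an unadjusted p under 0.05. Psme1, the alpha subunit of PA28, had 5.72 and 5.90 on the liposome arrays and 5.89 and 5.97 on the saline arrays. The groups overlapped, and the difference was -0.12 ± 0.11 (adjusted p 0.496 by limma; 95% interval -0.43 to 0.18). Psme2, the beta subunit that assembles with Psme1, had 5.90 and 5.86 on the liposome arrays and 5.70 and 5.64 on the saline arrays. Its groups were apart upward, with a difference of 0.21 ± 0.10 (adjusted p 0.218 by limma; 95% interval -0.05 to 0.47). The intervals of these partner subunits share the range from -0.05 to 0.18, and the difference between them was not tested.

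Psme3, the nuclear activator PA28 gamma, had 0.69 and 0.89 on the liposome arrays and 0.68 and 0.73 on the saline arrays. The groups overlapped (0.08 ± 0.12, adjusted p 0.661 by limma; 95% interval -0.23 to 0.40). Psme4, the activator PA200, known from work in mouse testis to act on histones, had 1.85 and 1.51 on the liposome arrays and 1.88 and 1.57 on the saline arrays. The arrays within each group differed more than the groups did (-0.05 ± 0.19, adjusted p 0.875 by limma; 95% interval -0.55 to 0.45). The core and cap medians of 0.20 and 0.24 lie inside the intervals of Psme2, Psme3 and Psme4 and just above the upper limit for Psme1. With 4 genes, the lower median of the activators is a description only.

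**Figure D4:**
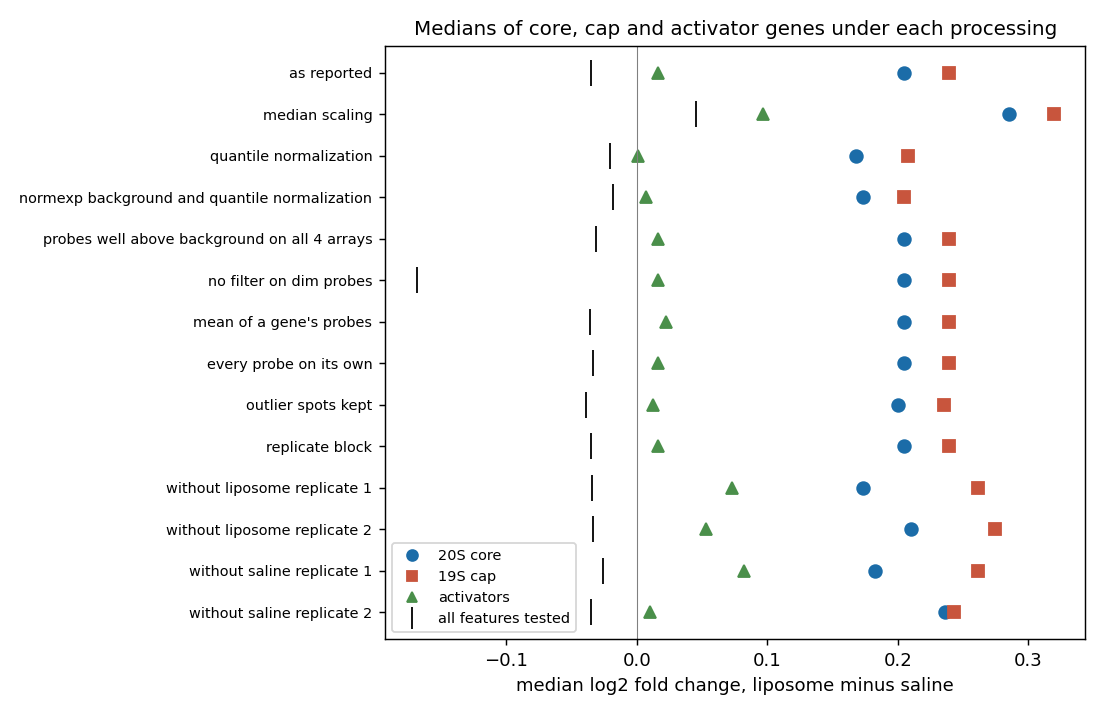
Median log2 fold change, liposome minus saline (x axis), of the core, cap and activator genes and of all features tested, under each way of processing the arrays (y axis). In each row the core and cap medians lie to the right of the activator median and of the median of all features, and median scaling moves all of them to the right together.

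The assembly chaperones hold partly built rings and are absent from the finished particle. Their median was 0.30 over 6 genes, 1 rose by limma, and 5 had groups apart upward, against 30.4% of all genes. Psmg2, which pairs with Psmg1 to build the alpha ring, had -1.21 and -1.35 on the liposome arrays and -1.85 and -1.99 on the saline arrays. The groups were apart by more than the spread within either, with a difference of 0.64 ± 0.12, or 1.56-fold (adjusted p 0.0492 by limma). Its probe spans chr18:64190995-64193104 of rn4 on the plus strand, a stretch of 2110 bases that is longer than the 60-base probe. Over the alternatives its adjusted p ran from 0.0337 to 0.286, and it was missed with averaged probes (0.0502), with outlier spots kept (0.0511), with each probe on its own (0.0551) and without the filter on dim probes (0.286). It was also missed when any 1 array was left out (0.0780 to 0.269), where the difference lay between 0.57 and 0.72.

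Psmg1 had 3.03 and 2.93 on the liposome arrays and 2.59 and 2.69 on the saline arrays (0.34 ± 0.10, adjusted p 0.115 by limma). Psmg4, which helps to place the alpha subunits, had 2.26 and 2.32 on the liposome arrays and 1.79 and 1.94 on the saline arrays (0.42 ± 0.11, adjusted p 0.0841 by limma). The groups of both were apart, and neither passed. The chaperones of the cap's base, Psmd9, Psmd10 and Psmd5, differed by 0.23, 0.26 and -0.11, and the groups of Psmd5 overlapped. Psmf1, the inhibitor PI31, differed by 0.01 ± 0.09, with overlapping groups and a 95% interval from -0.24 to 0.27. Psmc3ip, which is not a subunit, differed by 0.33 ± 0.12 (adjusted p 0.140 by limma).

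Repeated measures within the arrays gave similar values for the members that had them. The called genes Psmd2 and Psmg2 had none, with a single probe at a single spot each. The Psmg4 probes overlap in position. Among the genes with 2 passing probes, the brighter and dimmer probes differed between groups by 0.42 and 0.32 for Psmg4, 0.23 and 0.13 for Psmd9, 0.01 and -0.02 for Psmf1, and -0.05 and -0.02 for Psme4. The 7 member probes printed at 10 spots each had spot SDs of 0.01 to 0.12 log2 units within an array.

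Genes around the proteasome showed no call in 4 lists. Of 18 measured partners of the proteasome 12 were above 0, none was called, and the median was 0.14. The smallest p was that of Zfand2a, a cap-binding protein induced by arsenite, at 3.78 and 3.99 on the liposome arrays and 3.32 and 3.15 on the saline arrays (0.65 ± 0.13, adjusted p 0.0585 by limma). Its relative Zfand2b differed the other way by -0.41 (adjusted p 0.0849 by limma). Pomp, the maturation factor of the core, differed by 0.28.

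Of 16 genes for ubiquitin and its activation none was called, and the median was 0.01. The smallest p-values belonged to the conjugating enzymes Ube2l3 (0.31, adjusted p 0.197 by limma) and Ube2d3 (-0.21, adjusted p 0.206 by limma). The transcription factor NRF1, encoded by Nfe2l1, is known to raise proteasome genes together when proteasome activity is short. Of 14 measured genes of its route none was called, and the median was -0.02. Nfe2l1 itself differed by -0.24, its relative Nfe2l2 by 0.65 (adjusted p 0.0754 by limma) and the ubiquitin ligase Syvn1 by -0.35 (adjusted p 0.151 by limma).

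Of 10 measured genes of class I loading and the immunoproteasome none was called, and the median was -0.07. The peptide transporter subunits Tap1 and Tap2 differed by -0.53 (adjusted p 0.0972 by limma) and -0.74 (adjusted p 0.101 by limma). Of 21 interferon response genes 4 fell and 0 rose, and all 21 fitted differences lay below 0, with a median of -0.56. Both liposome arrays lay below both saline arrays for 17, against 35.1% of all genes, and the groups overlapped for the others. Relative to each gene's own mean over the 4 arrays, the list's median was 0.57 on saline 1 and 0.01 on saline 2. It was -0.33 on liposome 1 and -0.24 on liposome 2, so saline 1 lay further from the liposome arrays than saline 2 did. The transcription factor Irf1 had 5.40 and 5.60 on the liposome arrays and 6.47 and 6.36 on the saline arrays. Its groups were far apart (-0.91 ± 0.12, adjusted p 0.0308 by limma). Ifit3 (-1.24), Gbp5 (-0.82) and Isg15 (-1.33) also fell (adjusted p 0.0412, 0.0448 and 0.0459 by limma), but none of the 4 passed when any 1 array was left out. Psmb8, Psmb9, Psmb10, Psme1 and Psme2 are textbook interferon targets. Among them 0 were called, against 8.89% of all genes, and with so few genes that count says little. The groups were apart downward for Psmb9 (-0.33), apart upward for Psme2 (0.21) and overlapped for the others.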

How the data were processed

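The 4 arrays are one-colour Agilent arrays of 60-base rat probes, hybridised with Cy3-labelled RNA. A single slide and scan held all of them, which leaves no batch of that kind. The scanner software was Agilent Feature Extraction 10.7.3.1, per the submitters' processing notes. The deposited spot intensities are linear. Per the file headers, the software took off the background and a spatial trend to give the processed intensity, with no scaling from array to array. Of 42877 non-control spots, 61.3% to 66.3% per array were well above background and none was saturated. Of the software's quality metrics, 2 were out of range on saline 1, 1 on liposome 2 and 0 on the other arrays. The number of arrays limits the precision.

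From the processed intensity, control and outlier spots were left out, spots of a probe averaged, log2 taken and each array's 75th percentile subtracted. Genes were named by matching accessions to RefSeq (46 of the 51 proteasome probes) or else by the files, and the brightest passing probe stood for a gene. With R 4.3.3 and limma 3.58.1, a linear model with moderated variances (lmFit, eBayes) was fitted to 12858 genes, with Benjamini-Hochberg adjustment over all of them and a threshold of 0.05, and files were read with data.table version 1.17.8. The fit was checked on simulated data with independent noise, for the sign and median size of added differences only. No limit was set there on false calls, so it does not test the calls made here. No permutation test was made, because with 2 arrays in each group its smallest exact p is 0.333.

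The members and lists were chosen with earlier results of these data known. Values by array are given for called members, all activators and the 3 core and 3 cap genes of largest difference, as a rule. Other members with values by array, and the catalytic pairs, were picked for their roles after the values were seen. In the other lists, called genes were named, or the 2 of smallest p, and Nfe2l1 and Pomp were added for their roles. Alternatives changed the scaling, background correction, filter, probe choice, outlier spots and replicate block, or left out an array. Probe positions are those of the files (rn4), and exon or intron is not given because no annotation of that build was used here.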

Additional observations from a re-analysis of the deposited data

How the results depend on the processing

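With 2 arrays per group the calls are fragile, and the cause of the changes below was not tested except where fewer arrays or other genes enter. Of all genes 1143 were called by limma, 0 without the filter on dim probes (21971 genes, smallest adjusted p 0.144, 3005 genes at unadjusted p under 0.05), and 0 to 499 without 1 array: 0 without liposome 1 and without liposome 2, 499 without saline 1 and 372 without saline 2. Without liposome 1 and without liposome 2, 2177 and 2397 genes had an unadjusted p under 0.05. Median scaling called 852 higher and 442 lower, against 621 higher and 522 lower as reported, and it moved the median of all genes to 0.05. The titles end in exp1 or exp2 in both groups, and the labels do not say whether an exp number marks a shared day, batch or litter. The differences between the numbers correlated at 0.36 between the groups over genes, and with only 2 pairs the numbers were not taken to pair the arrays. With the replicate block 1816 genes were called, 828 higher and 988 lower, and 2 proteasome genes. With that block 9 of 11 natural killer, 5 of 11 B and plasma cell, 5 of 7 dendritic and 11 of 13 neutrophil genes were lower, against 0, 0, 3 and 7 as reported, and 0 of 11 T cell genes.

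Of the 2 proteasome genes called higher, 1 remained with quantile normalisation (Psmg2), 1 when a gene's probes were averaged (Psmd2), 1 with outlier spots kept (Psmd2), 0 with no filter, 0 with every probe on its own, and 0 to 0 without 1 array. No proteasome gene was called lower under any alternative run. The fitted difference was above 0 for 39 to 43 of the 46 genes.

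The core median was 0.29 with median scaling, 0.17 with quantile normalisation and 0.17 with normexp. The cap median was 0.32, 0.21 and 0.20 under the same settings, and the activator median 0.097, 0.0012 and 0.0073, against 0.016 as reported. Without 1 array the core median ran from 0.17 to 0.24, the cap median from 0.24 to 0.27 and the activator median from 0.0099 to 0.082.

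Small differences changed sign, all of them in genes not called. With median scaling Psme4 was 0.033 and Psmb10 0.075. With quantile normalisation Psma7 was -0.013 and Psmf1 -0.017, and with normexp Psma7 was -0.012, Psmb10 0.015 and Psmf1 -0.0094. With averaged probes Psmf1 was -0.0046. Without 1 array, Psme3 ran from -0.019 to 0.18, Psme4 from -0.22 to 0.13, Psma7 from -0.012 to 0.11, Psmb1 from -0.045 to 0.28, Psmb10 from -0.038 to 0.028, Psmc6 from -0.053 to 0.11, Psmd11 from -0.026 to 0.11 and Psmf1 from -0.0066 to 0.036. The cap statement that all 17 genes lie above 0 does not hold without liposome 2, saline 1 or saline 2, where Psmc6 or Psmd11 lay below 0.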
